A study of Caenorhabditis elegans with 2 samples.

Results

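The genes described here encode the receptors through which neuropeptides, monoamines and, for a small group, acetylcholine act on cells of the nematode Caenorhabditis elegans. They were chosen by name, as the protein-coding genes of the WBcel235 annotation whose symbol starts with npr-, frpr-, dmsr-, ckr-, gnrr-, tkr-, ser-, dop-, tyra-, octr- or gar-, together with egl-6, pdfr-1 and mod-1. The rule gave 113 of 19973 protein-coding genes, of which 93 are peptide receptors or their relatives and 20 are receptors for amines or acetylcholine. The rule uses symbols and no measured value, but the group was chosen with earlier results of these data known.

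The study mapped binding of ZAG-1, a transcription factor with zinc fingers and a homeodomain with a known role in how neurons differentiate, by chromatin immunoprecipitation and sequencing of an eGFP-zag-1 fusion. The animals were whole L1 larvae of strain OP83, which carries the mutation unc-119(ed3) on chromosome III and the insertion wgIs83, and they were pooled males and females per the labels. There was 1 group of 2 biological replicates, with no other genotype, stage or treatment, so no conditions could be compared and no test was made. Neurons are a minority of the cells of a whole larva, so the cells in which a region was bound cannot be read from these lists. Both replicates come from the same transgenic strain, and the level of the fusion relative to the animal's own zag-1 was not measured. The deposited values are lists of regions ranked by a signal value. Each replicate list and the list made on both replicates together (the pooled list) hold 30000 regions, called entries below. These lists are described as peaks plus background, so an entry alone is no call of binding. The optimal list, thresholded by the authors on reproducibility, holds 478 peaks, and they are the 478 highest entries of the pooled list. Ranks below count from 1 at the highest signal in the pooled list.

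Most of these genes encode G protein-coupled receptors, which cross the membrane and pass the binding of a peptide or amine outside the cell to a heterotrimeric G protein inside it. The Gq class activates phospholipase C, the Gs class activates adenylyl cyclase, and the Go and Gi class opposes transmitter release. In the worm these receptors let slow, diffusible signals set the state of neurons and muscles, as in egg laying, feeding, locomotion and sleep. mod-1 is an exception in structure, since it encodes a chloride channel opened directly by serotonin. The npr genes are named for similarity to neuropeptide receptors, the frpr genes for FMRFamide peptide receptors and the dmsr genes for the myosuppressin receptors of Drosophila. The ckr, gnrr and tkr genes are named for the receptors of cholecystokinin, gonadotropin-releasing hormone and tachykinin.

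The sequences at the summits show the DNA behind the highest-ranked receptor entries. Each line holds the 201 bases centred on the summit of the highest entry of a gene, on the coding strand of that gene, read from the RefSeq WBcel235 genome. The windows are V:14851207-14851407 (minus strand) for npr-13, II:358306-358506 (minus) for dmsr-4, X:12555576-12555776 (minus) for npr-4, IV:7965169-7965369 (plus) for frpr-10 and X:1291037-1291237 (plus) for dop-4. They belong to 5 of the 6 receptor genes of highest rank. The window X:3521619-3521819 (plus) of npr-16 was added, after the values were seen, as the highest-ranked receptor entry (rank 3876) that contains CAGGTA or CAGGTG, the E-box form known to be bound by ZEB-class proteins. Capitals mark that E-box form on either strand, and likewise the strings GAGAGA and CGTCTC, which were searched because they were frequent at the optimal peaks in earlier work on these data.
npr-13: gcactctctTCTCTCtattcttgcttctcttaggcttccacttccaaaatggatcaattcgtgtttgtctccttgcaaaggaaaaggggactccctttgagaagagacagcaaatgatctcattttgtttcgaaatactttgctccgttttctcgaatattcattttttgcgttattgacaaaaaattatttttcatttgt
dmsr-4: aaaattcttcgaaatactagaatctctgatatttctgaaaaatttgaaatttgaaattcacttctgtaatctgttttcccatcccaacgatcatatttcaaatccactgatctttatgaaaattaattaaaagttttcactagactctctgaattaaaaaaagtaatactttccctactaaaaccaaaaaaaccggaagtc
npr-4: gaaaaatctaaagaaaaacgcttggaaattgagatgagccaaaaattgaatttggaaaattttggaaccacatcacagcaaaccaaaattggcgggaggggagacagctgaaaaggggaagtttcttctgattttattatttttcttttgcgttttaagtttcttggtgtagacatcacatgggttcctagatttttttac
frpr-10: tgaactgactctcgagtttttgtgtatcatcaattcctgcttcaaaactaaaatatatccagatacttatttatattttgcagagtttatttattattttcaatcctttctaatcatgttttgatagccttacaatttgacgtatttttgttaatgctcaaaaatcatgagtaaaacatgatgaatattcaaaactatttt
dop-4: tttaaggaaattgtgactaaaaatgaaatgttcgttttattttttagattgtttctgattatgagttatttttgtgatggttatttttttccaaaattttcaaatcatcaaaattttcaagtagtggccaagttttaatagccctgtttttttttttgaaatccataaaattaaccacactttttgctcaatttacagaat
npr-16: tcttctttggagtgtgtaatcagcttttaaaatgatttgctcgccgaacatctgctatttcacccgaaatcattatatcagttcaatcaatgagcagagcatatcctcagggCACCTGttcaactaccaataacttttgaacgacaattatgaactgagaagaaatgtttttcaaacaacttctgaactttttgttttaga
In these lines GAGAGA, on the opposite strand, is found in the npr-13 window, the only 1 of the 6 that is an optimal peak. The dmsr-4, npr-4, frpr-10 and dop-4 windows hold none of the marked motifs. The window of npr-16 holds CAGGTG on the opposite strand. The bases G and C make up 36.3% of the npr-13 window and 27.9%, 35.3%, 25.9% and 24.4% of the windows of dmsr-4, npr-4, frpr-10 and dop-4.

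The share of receptor genes reached was near that of all genes in the optimal list and above it deeper in the pooled list. An entry was assigned to the gene with the nearest annotated protein-coding transcript start, within 5000 bp of the summit. On that rule 2 of the 113 receptor genes (1.77%) had an optimal peak, against 435 of all 19973 protein-coding genes (2.18%). Those 2 genes were npr-13 and npr-23. The count was 0 when replicate 1 was left out and the 478 highest entries of replicate 2 were taken instead, and it was 1 with only the 5′-most start of each gene. At least 1 pooled entry was assigned to 109 receptor genes (96.5%), against 63.0% of all protein-coding genes. Among the 1000 entries of highest signal the shares were close, at 5 receptor genes (4.42%) against 4.31% of all genes. They parted further down: 20 receptor genes (17.7%) had an entry in the upper 2000, against 8.18% of all genes, and 52 (46.0%) had an entry in the upper 5000, against 18.1%. With assignment within 1000 bp the shares were closer, at 16 receptor genes (14.2%) and 11.3% of all genes. In the upper 10000 the shares were 69.0% and 31.3%, and in the upper 20000 they were 90.3% and 50.2%. The deposited −log10 q of receptor entries fell from 1.58 at rank 922 (npr-4) to 0.982 at rank 1522 (npr-19). It was 0.349 at rank 4960 (npr-40), so the shares parted among entries with weak q values. The median rank of the highest entry of a gene was 5875 over the 109 receptor genes with an entry and 10070 over the 12582 protein-coding genes with one.

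**Figure D1:**
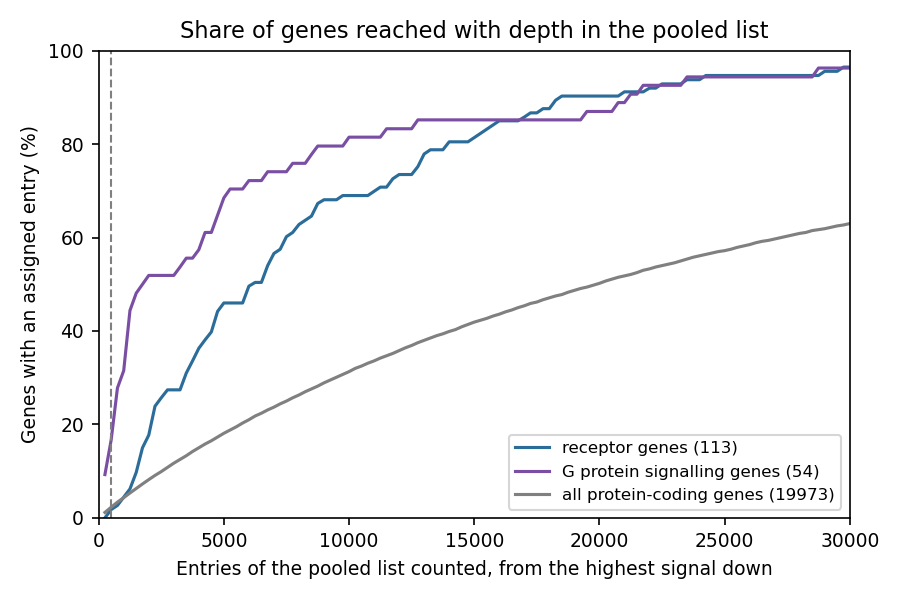
Share of genes with an assigned entry (vertical axis, percent) as more of the pooled list is counted from the highest signal down (horizontal axis, number of entries), for the 113 receptor genes, 54 genes of G protein signalling and all 19973 protein-coding genes. The dashed line marks the 478 optimal peaks, where the receptor genes (1.77%) lie close to all genes (2.18%). At 5000 entries the receptor genes have reached 46.0%, the G protein signalling genes 68.5% and all genes 18.1%. The list of G protein signalling genes was written with earlier results of these data known.

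The receptor genes lie in wide stretches of sequence, which moves with these counts. The stretch from which an entry would be assigned to a gene had a median of 8.38 kb for receptor genes and 3.77 kb for all protein-coding genes, and the gene itself a median of 3.93 kb and 2.03 kb. Among genes with a stretch of 10 kb or more, 23 of 33 receptor genes (69.7%) had an entry in the upper 5000, against 50.5% of all genes of that size. With a stretch of 5 to 10 kb it was 26 of 68 receptor genes (38.2%), against 25.7%. Under 5 kb it was 3 of 12, against 11.8%. Per 10 kb of assignable sequence, receptor genes had 4.18 pooled entries and all genes 3.02, and 0.718 and 0.506 entries of the upper 5000. For optimal peaks the order was the other way, with 0.0194 per 10 kb at receptor genes and 0.0497 at all genes. The median rank of the entries themselves was alike, at 14498 for the 431 entries of receptor genes and 14952 for all 27569 assigned entries. Receptor genes were also frequent on the X chromosome, with 39 of 113 (34.5%) against 13.7% of all genes. On X, 19 of the 39 receptor genes (48.7%) had an entry in the upper 5000, against 24.5% of all genes there. The bins of size and chromosome were chosen after the values were seen. The part of any other property of long neuronal genes was not tested.

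npr-13 had the highest-ranked entry of the group. Its optimal peak lay at V:14851135-14851478 on ce11, with rank 262, a signal of 36.7 and a −log10 q of 2.24. The summit was 2622 bp downstream of the nearest annotated npr-13 start, which belongs to a shorter transcript, and 1518 bp beyond the 3′ end of the gene (V:14852825-14858603, minus strand). The next nearest gene start, 3894 bp away, was that of ret-1, a reticulon gene. The peak overlapped the annotated noncoding RNA genes ZC412.13 and ZC412.15, so the assignment to npr-13 rests on distance to a start alone. In the replicate lists the overlapping entries had rank 249 (signal 15) in replicate 1 and rank 604 (signal 19.4) in replicate 2. The other 7 entries of npr-13 ranked 8030 or lower.

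npr-23 had the only receptor peak of the optimal list that sat at a gene start. The peak lay at I:1062066-1062409 on ce11, with rank 296, a signal of 35.5 and a −log10 q of 2.29. Its summit was 55 bp upstream of the npr-23 start (gene I:1062293-1065297, plus strand). The same position is inside the span of vps-4, a gene on the minus strand named for the ESCRT ATPase, whose own start was 4661 bp away. The overlapping entries ranked 84 (signal 22.7) in replicate 1 and 683 (signal 18.5) in replicate 2. G and C made up 53.2% of the 201 bases at the summit, and both GAGAGA and CGTCTC were present. The next receptor entry with both strings was that of gar-3, at rank 3309. A second optimal peak about 8 kb further on, of rank 322, was assigned to gsa-1, which encodes the Gs alpha subunit. The only other npr-23 entry ranked 20498.

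**Figure D2:**
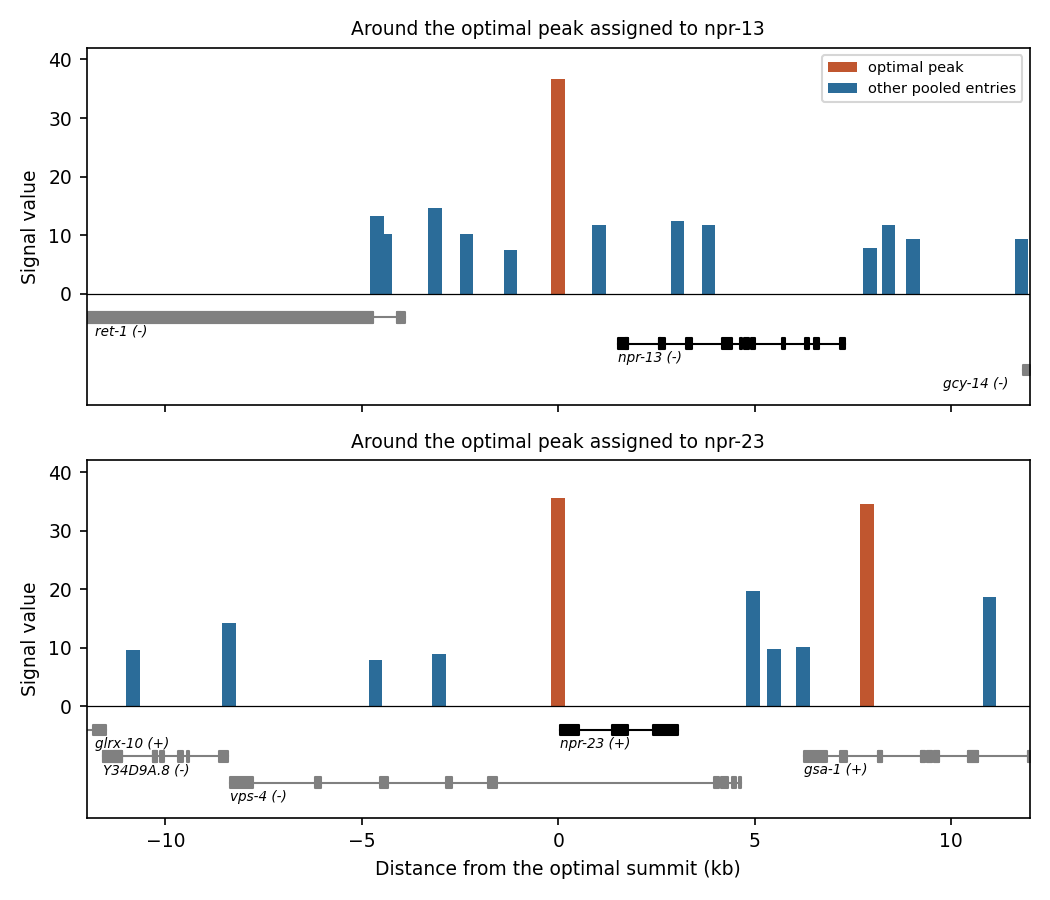
Signal value of each pooled entry (bars, vertical axis) by distance from the optimal summit (horizontal axis, kb) around npr-13 and npr-23, with optimal peaks in orange, other pooled entries in blue, and the genes below (boxes for exons, strand in brackets). The npr-13 peak (36.7) stands beyond the 3′ end of npr-13, and the npr-23 peak (35.5) stands at its start and within vps-4, with the optimal peak of gsa-1 to the right.

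Just below the optimal list, the next receptor entries belonged to dmsr-4, npr-4, frpr-10 and dop-4. The signal at the edge of the optimal list was 29.6 on both sides (ranks 478 and 479), and no receptor entry lay between rank 296 and rank 716. The dmsr-4 entry at II:358234-358577 had rank 716 and signal 25.4, 1337 bp upstream of the start, and ranked 538 in replicate 1 and 2786 in replicate 2. A second dmsr-4 entry, in an intron 2285 bp downstream of the start, ranked 929 with 7389 and 1307 in replicates 1 and 2. npr-4, a receptor for FLP-18 peptides, had 8 entries, of which 4 were in the upper 5000. Its highest, 3992 bp upstream, had rank 922 and signal 23.3 but ranked 12336 in replicate 1 and 2474 in replicate 2, while its second, rank 1212, was high in both replicates (2030 and 1266). That second entry was 4961 bp from the start, just inside the limit of assignment. frpr-10 had an entry of rank 959 and signal 22.9 at IV:7965097-7965440, with ranks 5635 and 801 in replicates 1 and 2. Its summit lay inside the gene, 345 bp upstream of a start that is itself within the span of frpr-10. For frpr-10 and for the upper npr-4 entry the pooled rank thus follows replicate 2 more than replicate 1.

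The npr, frpr and dmsr genes are the largest families of the group. Of the 43 npr genes, 41 had a pooled entry and 18 had one in the upper 5000, and their median highest rank was 6622. npr-9, which encodes a receptor related to those of allatostatin and galanin, had an entry of rank 1292 with ranks 4497 and 3378 in replicates 1 and 2, but the summit lay in the UTR of the neighbouring gene gcy-9. npr-40 had rank 1412, in a UTR of its own gene, with 6855 and 1418 in replicates 1 and 2. npr-19, a gene related to cannabinoid receptors, had rank 1522 and stood 4588 bp from its start, with 20253 in replicate 1 and 1454 in replicate 2. npr-1, a member best known for its role in social feeding, was picked after its values were seen and had rank 16811 and no overlapping entry in replicate 1. All 20 frpr genes had an entry and 13 (65.0%) had one in the upper 5000, with a median of 4036. frpr-7 had rank 1225 in an intron, with 7299 and 3547 in replicates 1 and 2. Of the 16 dmsr genes 15 had an entry and 6 had one in the upper 5000, with a median of 6211. dmsr-15 had rank 1413 in an intron, with 3454 and 4931 in replicates 1 and 2. Within these 3 families the last by highest entry were npr-33 (rank 24215), frpr-12 (22259) and dmsr-13 (29580).

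egl-6, a receptor for FLP-10 and FLP-17 that inhibits egg laying, had 5 entries, and the highest ranked 5843, at 1072 bp upstream of the start, with 5996 in replicate 1 and 20194 in replicate 2. pdfr-1, the receptor for the PDF peptides that govern roaming, had 10 entries. The highest ranked 1883 with a signal of 18.5, was 4175 bp upstream, and ranked 4245 and 5955 in replicates 1 and 2. Among the 7 gnrr genes, gnrr-2 led with rank 2102, 123 bp upstream of its start. gnrr-4 followed with 2725, and gnrr-7, gnrr-5, gnrr-6 and gnrr-1 lay between 11022 and 13781. The gnrr-2 entry overlapped the antisense RNA gene C15H11.16, ranked 2913 in replicate 2 and overlapped no entry of replicate 1. Among the 3 tkr genes tkr-3 led with rank 1915 and 10 entries, while tkr-1 reached only rank 23275. ckr-2, a receptor for the NLP-12 peptides, had rank 3351 in an intron, with 4305 in replicate 2 and none in replicate 1, and ckr-1 had rank 28978.

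Receptors for amines and acetylcholine had no optimal peak, against 2.18% of all protein-coding genes, so none among 20 is near that share. All 20 had a pooled entry, against 89 of the 93 peptide receptors and 63.0% of all protein-coding genes. An entry in the upper 5000 was found for 10 of the 20 and for 42 of the 93 peptide receptors (45.2%). The median highest ranks were 5747 and 5875. dop-4, a D1-like dopamine receptor, led the amine receptors with rank 1137 and signal 21.6 at X:1290965-1291308, 4116 bp upstream of its start, with 3925 and 1226 in replicates 1 and 2. dop-6, a D2-like receptor, had rank 1370 within a coding exon of its own gene, with 8620 and 3083 in replicates 1 and 2, and G and C made up 49.8% of that window. The other 4 dop genes ranked between 6659 (dop-1) and 14853 (dop-2). Of the 7 ser genes, which encode receptors for serotonin, octopamine or tyramine, 5 (71.4%) had an entry in the upper 5000. ser-1, a serotonin receptor that acts through Gq, led with rank 2204, and ser-7, a serotonin receptor of the pharynx, was last with 8648. In replicates 1 and 2 the ser-1 entry ranked 15624 and 5548. tyra-3, a receptor for tyramine and octopamine, had rank 4094, with 27973 and 6270 in replicates 1 and 2. The octopamine receptor gene octr-1 had rank 7599. Among the muscarinic acetylcholine receptor genes gar-3 had rank 3309, 112 bp upstream of a start, with 10187 and 1906 in replicates 1 and 2, and both GAGAGA and CGTCTC in its window. mod-1, the serotonin-gated chloride channel, had rank 3425 in an intron, with 2637 and 20791 in replicates 1 and 2.

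**Figure D3:**
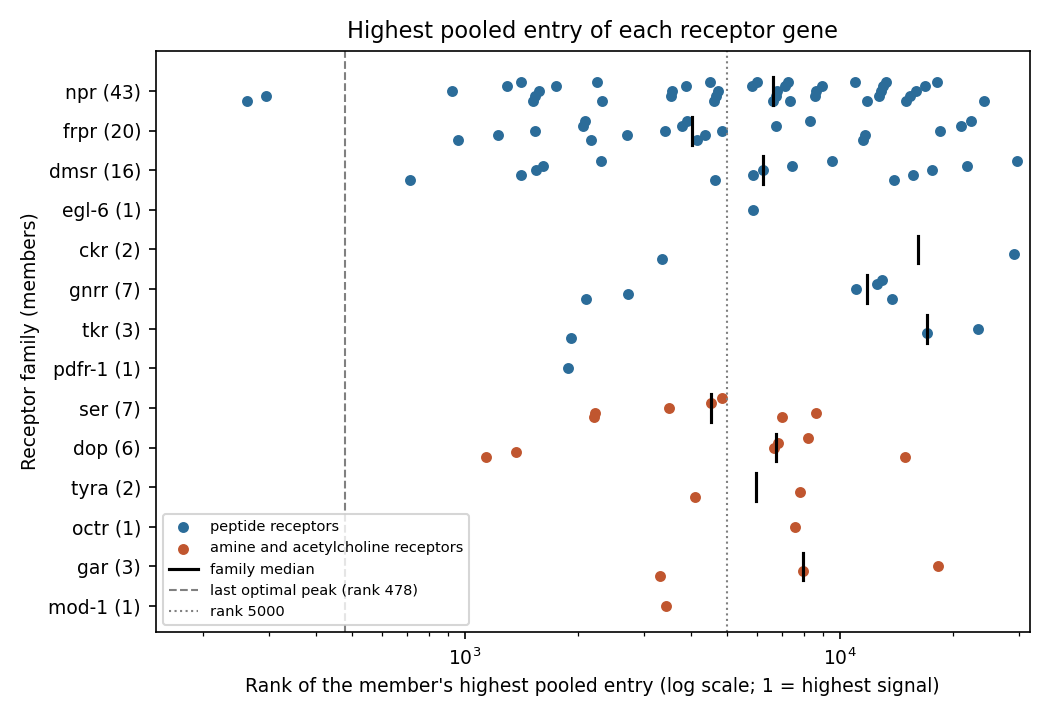
Rank of the highest pooled entry of each of the 109 receptor genes that had one (points, horizontal log axis, 1 is the highest signal), by family with its number of members (vertical axis), peptide receptors in blue and amine and acetylcholine receptors in orange. Black bars are family medians; npr-13 (262) and npr-23 (296) are the only points left of the last optimal peak (dashed line, rank 478), and 52 points lie left of rank 5000 (dotted line).

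No pooled entry was assigned to dmsr-11, gnrr-3, npr-39 and npr-41. dmsr-11 lies in a run of dmsr genes on chromosome V and had 2.20 kb of assignable sequence, and the nearest entry, 1481 bp from its start, was closer to dmsr-10. It had 2 entries in replicate 2, the higher at rank 22771, and none in replicate 1. gnrr-3 had 3.42 kb and npr-39 had 3.06 kb, and neither had an entry in either replicate list. npr-41 had 7.20 kb, with entries of rank 24269 in replicate 1 and 9671 in replicate 2. The other 109 genes had 1 to 11 entries, or 3.95 each, against 2.19 for all protein-coding genes with an entry. npr-26 and dmsr-6 had 11 each and dmsr-8, pdfr-1 and tkr-3 had 10 each. The highest entries of these 5 genes ranked 4618 (npr-26), 4649 (dmsr-6), 2306 (dmsr-8), 1883 (pdfr-1) and 1915 (tkr-3), all in the upper 5000. Of the 431 entries 46 overlapped another entry of the same gene, so entries are not all separate regions.

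Entries of receptor genes lay further from gene starts than assigned entries as a whole. The median distance from summit to start was 1810 bp for receptor genes and 1079 bp for all assigned entries. A start within 500 bp was found for 63 of the 431 entries (14.6%), against 28.2% of all assigned entries. Intergenic sequence held 188 (43.6%), against 28.8%, and introns held 149 (34.6%), against 27.5%. Coding exons held 23 (5.34%), against 9.32%, UTRs 5 (1.16%), against 3.74%, and genes that do not code for protein 3 (0.696%), against 2.42%. Each summit was given only the first class that applied, in the order start window, coding exon, UTR, intron, noncoding gene and intergenic. Over their whole length 38 of the 431 entries (8.82%) overlapped a gene that does not code for protein, a count not made over all assigned entries. Upstream of the assigned start lay 273 (63.3%), against 52.8%, and more than 2000 bp upstream lay 138 (32.0%), against 13.5%. The share inside the assigned gene was alike, at 46.4% and 45.1%. The highest entry was within 500 bp of a start for 13 of 109 genes and more than 2000 bp away for 50. Some entry within 500 bp of a start was found for 54 receptor genes. These counts were not made over all genes. A summit can lie far from its assigned start only where no other start is near, and receptor genes lie in wide stretches. The part of stretch width in these shares was not tested. At the limit of assignment, a pdfr-1 entry 4975 bp from a start (rank 13630) was the last inside, and a region 5004 bp from ser-3 (rank 12336) was the first outside.

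**Figure D4:**
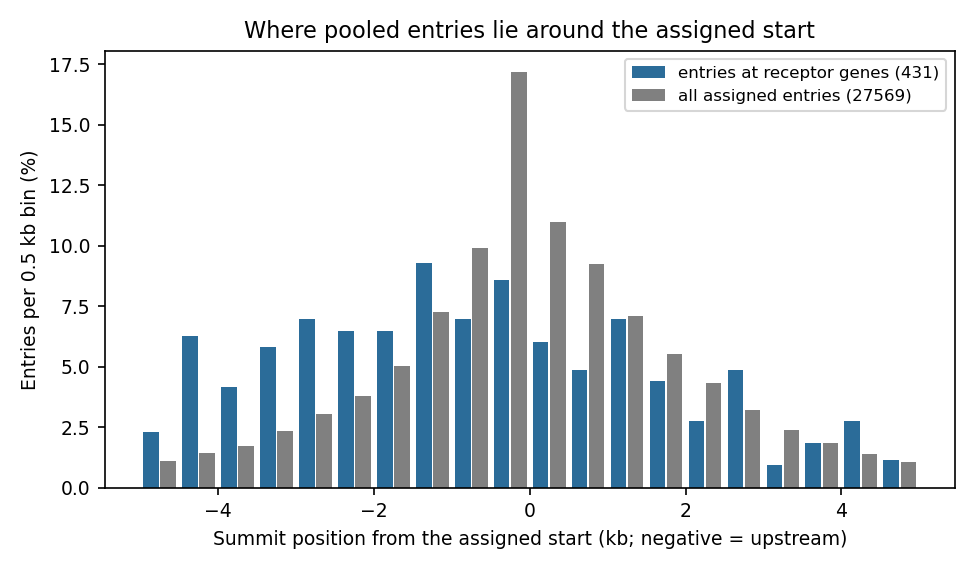
Share of entries (vertical axis, percent per 0.5 kb bin) by position of the summit from the assigned start (horizontal axis, kb, negative is upstream), for the 431 entries of receptor genes in blue and all 27569 assigned entries in grey. The grey bars peak at the start, with 28.2% of entries within 500 bp, while the blue bars spread over the upstream side, with 14.6% within 500 bp and 32.0% over 2000 bp upstream.

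Of the 431 receptor entries, 150 (34.8%) overlapped an entry of both replicates, against 32.1% of all assigned entries, and 37 overlapped none. The order of the 150 by rank agreed little between replicates. The pooled list was made on both replicates, so such overlap is not independent agreement. The highest entry overlapped an entry of both replicates, by 1 bp or more, for 56 of 109 receptor genes (51.4%), against 38.9% of all genes with an entry. Over entries of the upper 5000 the shares were 54 of 74 entries of receptor genes and 73.7% of those of all genes, and below rank 5000 they were 96 of 357 (26.9%) and 23.7%. Over the 150 receptor entries found in both replicates, Spearman's rho between the replicate ranks was 0.0527, against 0.261 over the 8846 of all assigned entries. These values describe entries, which share libraries and depth and are not independent. An entry of the upper 5000 was found for 43 receptor genes in replicate 1 and for 46 in replicate 2, with 21 in both. The same counts were not made over all genes, so they do not measure agreement at receptor genes. Among the 431 receptor entries 8 (1.86%) overlapped the upper 5000 of both replicates, against 4.45% of all assigned entries. The 8 belonged to npr-13, npr-23, dmsr-4, dop-4, npr-4, npr-9, dmsr-15 and dmsr-10, of which dmsr-10 was at pooled rank 17564. In the upper 478 of both replicates there was no receptor entry, against 226 of all assigned entries (0.820%). The 2 optimal peaks ranked 604 and 683 in replicate 2.

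**Figure D5:**
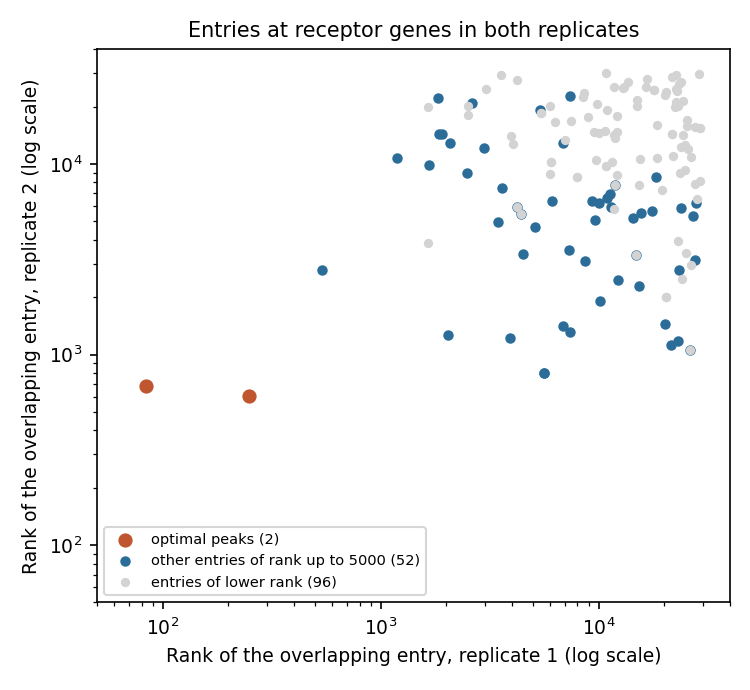
Rank in replicate 1 (horizontal log axis) against rank in replicate 2 (vertical log axis) of the entries overlapping each of the 150 receptor entries found in both replicate lists; 1 is the highest signal. The 2 optimal peaks (orange) stand alone at the lower left, at ranks 249 and 84 in replicate 1 and 604 and 683 in replicate 2, while the other points show no common order (Spearman's rho 0.0527 over all 150).

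The DNA strings searched were about as frequent at receptor entries as in the list as a whole, with the exception of CGTCTC, which was less frequent, and GAGAGA and CGTCTC were rarer than at the optimal peaks. CAGGTA or CAGGTG was present on either strand, within 100 bp of the summit, in 36 of 431 receptor entries (8.35%), against 7.92% of all assigned entries and 3.56% of the optimal peaks. The wider E-box CANNTG, which includes CAGGTG but not CAGGTA, was present in 237 (55%), against 51.8% and 54.4%. GAGAGA was present in 52 (12.1%), against 13.1% of all assigned entries and 49.4% of the optimal peaks. CGTCTC was present in 9 (2.09%), against 6.37% and 36.4%. Within the receptor entries, CAGGTA or CAGGTG was present in 2 of the 74 entries of the upper 5000 (2.70%) and in 34 of the 357 below (9.52%), against 5.60% and 8.39% of all assigned entries in those classes. GAGAGA was present in 9 and 43 of those receptor entries. G and C made up 32.4% ± 5.15 of the windows of receptor entries (SD, n = 431) and 33.2% ± 6.49 of those of all assigned entries (SD, n = 27569), and averaged 43.3% at the optimal peaks. A match is a string in the reference genome and was not tested as a binding site.

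Lists of partners of these receptors and of further receptors were compared in the upper 5000. Only G protein signalling had a share far above that of all protein-coding genes. The shares of the other lists reached at most 30.4%, against 18.1% of all protein-coding genes. Genes of G protein signalling, downstream of nearly all the receptors, were the highest of the lists compared. That list was written with earlier results of these data known, so its place is a description only. Of the 54 genes of that list, 37 (68.5%) had an entry in the upper 5000, with a median highest rank of 1577. Against 2.18% of all protein-coding genes, 9 of the 54 had an optimal peak. They were gpa-7, a G alpha subunit (rank 109), the adenylyl cyclase gene acy-1 (149), the Gq alpha gene egl-30 (150), the phosphodiesterase gene pde-4 (163), the regulator of Go signalling egl-10 (226), gsa-1 (322), the protein kinase A catalytic subunit gene kin-1 (367), the G gamma gene gpc-2 (419) and the regulator of Gq signalling eat-16 (458). All 9 also ranked in the upper 1000 of each replicate. Their stretches were about as wide as those of the receptor genes (median 8.33 kb), with 5.0 pooled entries per 10 kb against 4.18.

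No gene of the other lists had an optimal peak, against 2.18% of all protein-coding genes. For lists of 5 to 30 genes, none is near that share. Of 30 genes for ligands of these receptors, 7 (23.3%) had an entry in the upper 5000, with a median highest rank of 8697, and the highest were nlp-49 (857), known to act on the receptor SEB-3 outside the naming rule, nlp-8 (863), the PDF gene pdf-1 (1455) and nlp-47 (2858). Of 14 genes listed for making, packaging, taking up or breaking down monoamines, 8 (57.1%) had any entry, against 63.0% of all protein-coding genes. An entry in the upper 5000 was found for 3 (21.4%), against 18.1%. They were the vesicular monoamine transporter gene cat-1 (1254), snf-3, a transporter gene of the same family as the amine transporters that is known to carry betaine (3490), and the tyrosine hydroxylase gene cat-2 (4704), followed by comt-4 (5695). The median stretch of that list was 3.44 kb, against 3.77 kb for all protein-coding genes. Among 5 amine-gated channel genes other than mod-1, lgc-50 (2926) was the only 1 in the upper 5000, and lgc-53 (6288), lgc-39 (13416) and lgc-55 (18969) followed. Of 23 further receptor genes outside the naming rule, 7 (30.4%) had an entry in the upper 5000, led by the metabotropic glutamate receptor gene mgl-3 (683), sprr-2 (981), the insulin receptor gene daf-2 (1504) and the latrophilin gene lat-1 (2232). The lists were written with earlier results of these data known, and their counts stand beside the 46.0% of the receptor genes and 18.1% of all protein-coding genes as a description.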

How the data were processed

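Chromatin immunoprecipitation and sequencing was done on 2 biological replicates of whole L1 larvae, in 1 group. The authors deposited a peak list for each replicate, a pooled list and an optimal list on ce11. Each was called with a control, per the labels and release notes. The signal value is a score deposited by the authors and served here to rank entries within 1 list, since its formula is unknown. The deposited −log10 q is printed as a description. Summit positions were also taken from the deposited lists. Aligner, caller, versions and read numbers: not given in the sources used here. Depth is thus unknown and no interval was computed. The ce10 lists were not used here.

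Summits were assigned to the nearest of 29314 protein-coding transcript starts (Ensembl release 115) within 5000 bp. Of 31805 annotated start codons, 31769 (99.9%) read ATG in the WBcel235 genome of RefSeq, from which sequences were taken. The text names genes with an optimal peak, the 12 of highest rank, the first of each family, the 5 with the most entries, egl-6, pdfr-1, mod-1 and those without an entry. Of each pathway list it names the 4 highest and any with an optimal peak, and a few other genes were chosen after their values were seen. 7 pathway symbols matched no gene (pdf-3, nmur-4, seb-2, capr-1, galr-2, tag-49 and lgr-1). The lists and motifs, like the receptor genes, were chosen with earlier results of these data known. Assignment and overlap were tested on simulated positions. Python 3.11.15, numpy 2.4.6, pandas 2.3.3 and scipy 1.17.1 were used. Alternatives were other assignment limits and starts, single replicates, stricter ranks, other overlaps and other windows.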

Additional observations from a re-analysis of the deposited data

How the results depend on the processing

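The count of receptor genes with any pooled entry (109) was between 75 and 110 under the alternatives run. Of 57 recomputed values, 24 stayed within 1.5 times a count or within the spread between replicate lists, and 33 moved. Some moves follow from the setting itself, since a limit of 1000 bp keeps only entries near a start. For the shares, the spread was an SD over 2 lists of 0.0645 to 0.281 points, so small changes also count as moves. The cause of the other moves was not tested. The 2 genes with an optimal peak became 1 within 1000 bp, 1 with 1 start per gene and 1 with assignment to genes spanning the summit, 0 among the optimal peaks above the median signal of that list, and 0 to 2 when a replicate was left out. The 52 genes in the upper 5000 became 16 within 1000 bp and 20 in the upper 2000, and were 43 to 46 with a replicate left out. The median highest rank (5875) was 11215 within 1000 bp, 4663 within 10000 bp, and 5390 to 6473 with a replicate left out. The 56 genes whose highest entry overlapped both replicates became 24 within 1000 bp and 33 with summits within 100 bp. The share near a start (14.6%) was 55.3% within 1000 bp and 11.8% within 10000 bp, 12.4% with 1 start per gene, 13.6% with genes spanning the summit, 7.19% and 26.5% with windows of 250 and 1000 bp, and 13.8% to 13.9% with a replicate left out. CAGGTA or CAGGTG (8.35%) was at 11.4% within 1000 bp, 7.57% with 1 start per gene, 9.15% with genes spanning the summit, 4.41% within 50 bp of the summit, 13.7% over the whole entry, and 6.57% to 6.97% with a replicate left out. GAGAGA (12.1%) was at 13.2%, 11.6%, 11.6%, 7.42% and 19.3% under those settings in the same order, and 12.9% to 13.1% with a replicate left out. No paired analysis was possible because there was 1 group of 2 replicates and no test. With 2 replicates, no control data used here and unknown depth, low entries cannot be told from background, and assignment by distance does not show which gene a region acts on.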

Other observations

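Several receptor genes are close neighbours, so which of them an entry was given to depends on the nearest start. On chromosome V, dmsr-9, dmsr-10, dmsr-11, dmsr-12, dmsr-16, dmsr-14, dmsr-13 and dmsr-15 lie on the same strand with gaps of 419 bp and more between them. Their highest entries ranked 7435 for dmsr-9, 17564 for dmsr-10, 15679 for dmsr-12, 13883 for dmsr-16, 5875 for dmsr-14, 29580 for dmsr-13 and 1413 for dmsr-15, and dmsr-11 had none. The dmsr-14 entry has its summit in a coding exon of dmsr-13, and the dmsr-9 and dmsr-10 entries overlap each other and the same entry of replicate 2 (rank 3852), so these ranks are not separate for each gene. A second run holds frpr-13, frpr-12 and frpr-11 beside mod-1, with 259 bp between frpr-11 and mod-1. Their highest entries ranked 4848, 22259, 1537 and 3425 in that order. The frpr-11 entry, 213 bp downstream of a start, ranked 1189 in replicate 1 and 10725 in replicate 2. The gnrr-6 and gnrr-7 genes on X, 4523 bp apart, had highest ranks of 12955 and 11022.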
